A study of Cavia porcellus with 12 samples.

Results

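Matrix metalloproteinases (MMPs) and their inhibitors were examined in liver RNA of guinea pigs with and without nonalcoholic steatohepatitis (NASH). From a list of 10 genes, those that are rows of the deposited expression table were taken, which left 8 of 11896 genes. These were *MMP2*, *MMP12*, *MMP14*, *MMP19*, the tissue inhibitors of metalloproteinases *TIMP1*, *TIMP2* and *TIMP3*, and *ADAMDEC1*, a relative of the metalloproteinases. The other 2 listed genes, *MMP7* and *MMP9*, are not rows of that table and were not analysed here. Liver was taken from 6 guinea pigs with NASH that had received a high fat diet with sucrose and cholesterol for 25 weeks (animals 2, 9, 11, 20, 41 and 65) and from 6 healthy controls on chow over the same time (animals 5, 10, 31, 32, 45 and 56). All were female guinea pigs of the Dunkin Hartley strain and 10 weeks old on arrival. The animals with NASH were chosen for bridging fibrosis, so milder disease is not represented, and the livers were not perfused. Libraries held between 16980274 and 33091460 counts.

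MMPs are zinc-dependent endopeptidases that are made as inactive proenzymes and, once activated, cut collagens, elastin and other matrix proteins. TIMPs bind to the active site of these enzymes and block it, each with its own range of targets. In liver, hepatic stellate cells and fibroblasts are known sources of *MMP2* and the TIMPs, whereas macrophages are the classic source of *MMP12*. Transcript levels do not show how much of an enzyme was active. The guinea pig table names genes by human orthologue symbols, and values are given in CPM, counts brought to an equal library size after scaling by the trimmed mean of M-values (TMM). Longer transcripts give more counts, so levels were compared between animals and not between genes.

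By edgeR's quasi-likelihood test with Benjamini-Hochberg adjustment over all 11896 genes, 6 of the 8 genes were higher in NASH and none was lower, and *MMP14* and *TIMP3* did not pass an adjusted p-value of 0.05. Of all genes tested, 53.9% passed in either direction, 27.9% higher and 26% lower. The table keeps genes with at least 200 counts over all animals, and *MMP12*, *ADAMDEC1* and *MMP2* had 19, 14 and 87 counts in all controls together, so these 3 are rows only because of their counts in NASH. The count of genes called is therefore a description, and nothing is read from it about the 8 genes as a set. In the lists below, genes such as *MMP11* (152 counts in all controls), *TREM2* (9), *ADAM8* and *SPOCK1* (none) are likewise rows only because of NASH. So are *PDGFB*, *TNF* and *ETV4*, with at most 30 counts in any control. Counts of genes called in those lists are therefore a description as well. For 5 of the 8, CPM did not overlap between the groups and was higher in NASH, which held for 18.4% of all genes, or 33.7% when either direction was counted. When library size alone was used in place of TMM, the median of all genes moved to 0.476 and the split from 3318 higher and 3093 lower to 7603 higher and 911 lower. Both the size of a change and its call can therefore depend on the scaling, also for some changes larger than this shift. In bulk tissue, more cells of a type and more RNA per cell cannot be told apart.

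**Figure D1:**
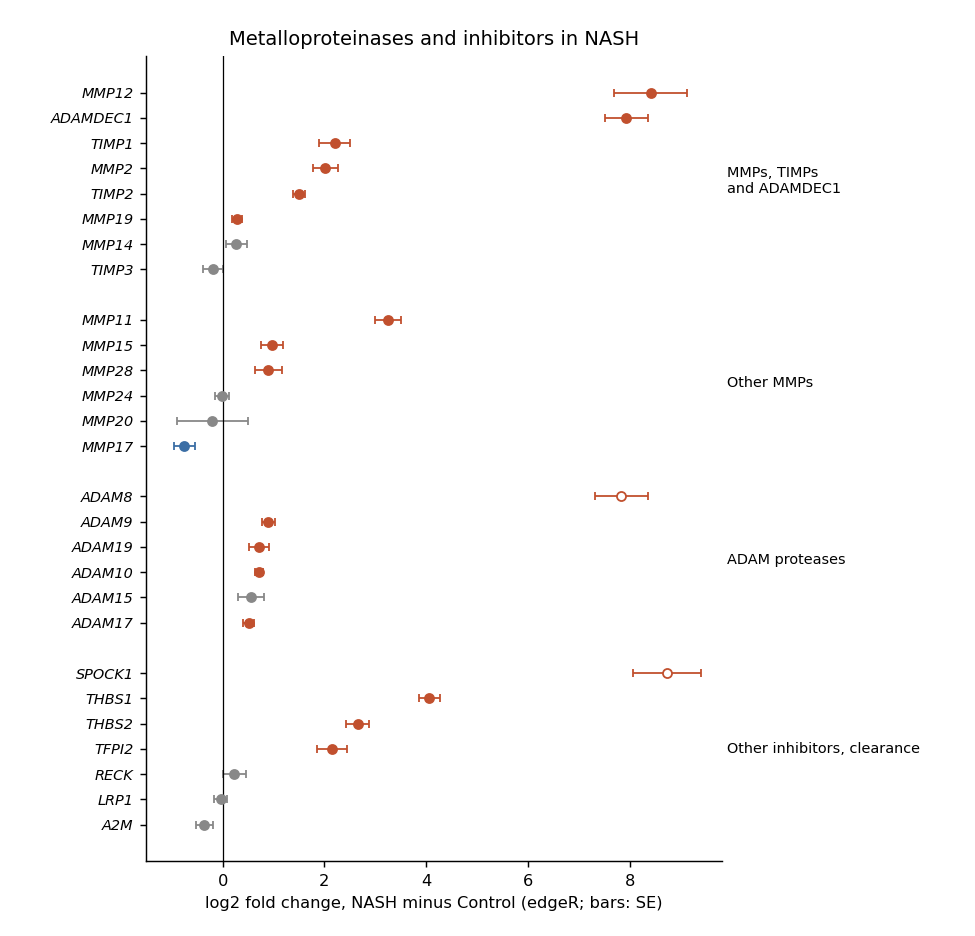
Log2 fold change of NASH against controls from edgeR (x axis, log2 scale) for the 8 genes and 3 lists of related genes, with bars for the standard error. Red and blue mark genes that passed an adjusted p-value of 0.05 as higher and lower, grey those that did not, and open circles genes without a count in any control, whose fitted value is no bound. *MMP12* and *ADAMDEC1* lie near 8, *TIMP1* and *MMP2* near 2, and *TIMP3* just below 0.

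*MMP12* encodes macrophage elastase, a secreted protease that cuts elastin. In NASH its lowest, median and highest values were 31.5, 53.8 and 106 CPM, from 900 to 3388 counts. Among controls only animal 32 had any count, with 19 counts or 0.872 CPM, and the other 5 were at 0. The groups were therefore far apart, with a log2 fold change of 8.41 (SE 0.72, edgeR, adjusted p = 1.32e-06). Without animal 32 no control has a count, and the change is then known only as a bound. Against 3 counts in a single library, which is up to 0.214 CPM, the mean in NASH was at least 265-fold and the lowest animal with NASH at least 147-fold higher than the 5 controls without a count. Animal 32 itself lay above that floor. Within NASH the level differed 3.35-fold between the highest animal, number 20, and the lowest, number 65.

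*ADAMDEC1* encodes decysin, a secreted ADAM-like protein known from macrophages and dendritic cells that has an unusual zinc site. It was measured at between 0 and 5 counts in controls, 14 counts in all (95% Poisson interval 7.65 to 23.5, counting error only), and at between 461 and 1554 counts in NASH. In CPM, the highest control reached 0.206, and the lowest, median and highest animals with NASH were at 16.1, 30.8 and 48.4. The log2 fold change was 7.93 (SE 0.42, edgeR, adjusted p = 7.68e-08). Animal 20 was again the highest and animal 65 the lowest, as for *MMP12*.

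**Figure D2:**
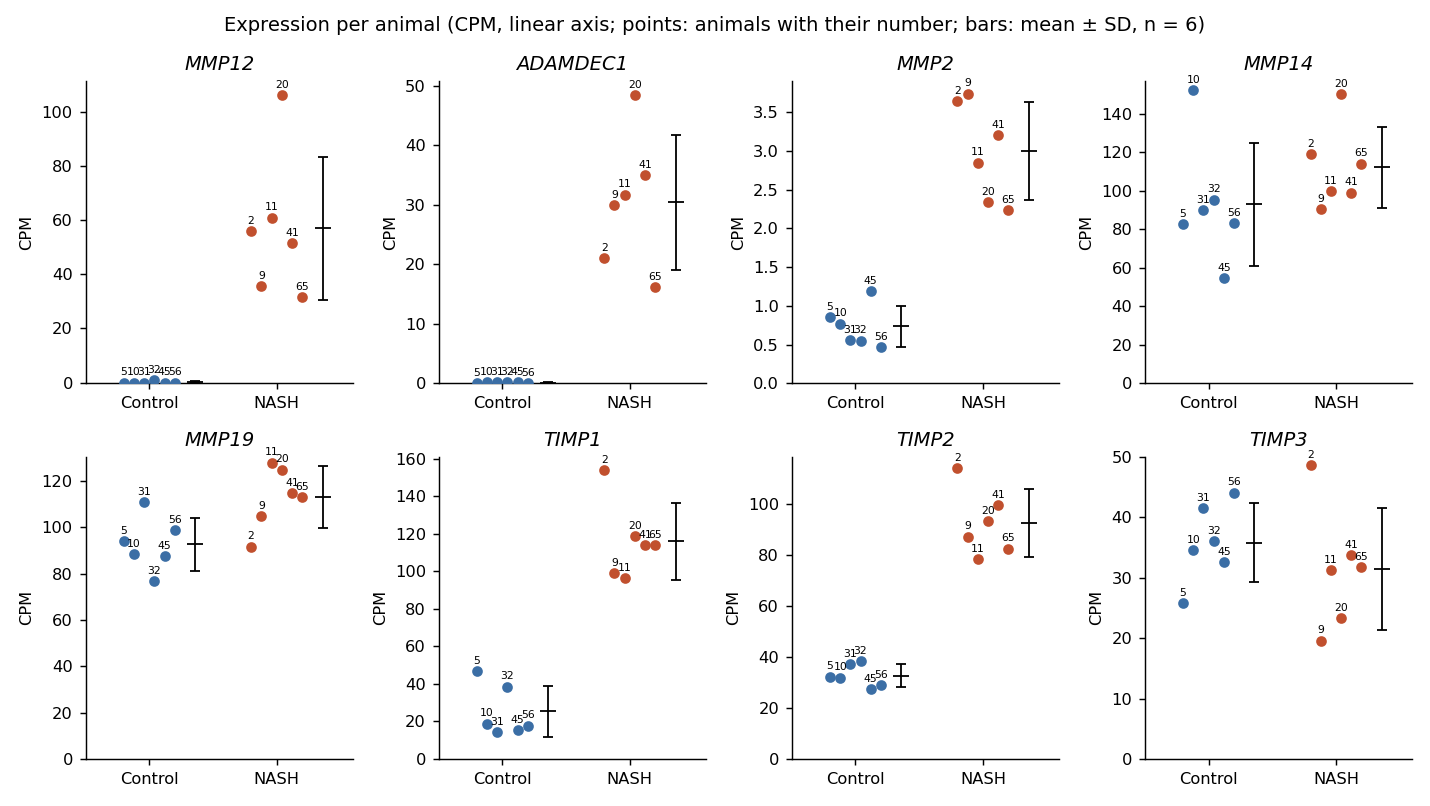
CPM of each of the 8 genes (y axes, linear) in 6 controls and 6 animals with NASH, with the animal number beside each point and the mean ± SD to the right. *MMP12* and *ADAMDEC1* were near 0 in controls, *MMP2*, *TIMP1* and *TIMP2* did not overlap between groups, and *MMP14*, *MMP19* and *TIMP3* did.

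*MMP2* (gelatinase A) degrades denatured collagen and the type IV collagen of basement membranes. Its lowest, median and highest values were 0.471, 0.664 and 1.19 CPM in controls and 2.24, 3.03 and 3.74 CPM in NASH, so the groups did not overlap. *MMP2* rose 4.04-fold, a log2 fold change of 2.02 (SE 0.24, edgeR, adjusted p = 1.85e-05). Only 7 to 29 counts lay behind a control value and 64 to 128 counts behind a value in NASH, which limits the precision in controls.

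*MMP14* encodes a membrane-anchored MMP that activates the proenzyme of MMP2 at the cell surface in a complex with TIMP2. Its count row also carries the symbol *MRPL52*, which encodes a mitochondrial ribosomal protein, and how its reads divide between these genes was not tested. The row was at 54.6, 86.5 and 152 CPM (lowest, median and highest) in controls and at 90.5, 107 and 150 CPM in NASH. The groups overlapped, with control animal 10 above all others. The log2 fold change was 0.27 (SE 0.20, edgeR, adjusted p = 0.283), with a 95% interval of the fold change from 0.915 to 1.59. Without animal 10 the log2 fold change was 0.47 (edgeR, adjusted p = 0.0274), and with library size alone it was 0.75 (adjusted p = 0.00582).

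*MMP19*, a secreted protease that cuts basement membrane proteins, was at 76.9, 91.3 and 111 CPM in controls and at 91.7, 114 and 128 CPM in NASH. The groups overlapped, and 4 of 6 animals with NASH were above all controls. Its log2 fold change of 0.28 (SE 0.10, edgeR, adjusted p = 0.0289) was the smallest among the 6 of these genes that passed the test. The call was lost when any 1 of 7 animals was left out (controls 10, 32 and 45 and animals 11, 20, 41 and 65 with NASH), with edgeR's adjusted p-values up to 0.0656.

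*TIMP1*, which inhibits most secreted MMPs and is a long-known marker of liver fibrosis, was at 14.4, 18.3 and 46.7 CPM in controls and at 96.4, 114 and 154 CPM in NASH. Among controls, animals 5 (46.7 CPM) and 32 (38.6 CPM) lay above the other 4, which were between 14.4 and 18.8 CPM, but all remained below NASH. *TIMP1* rose 4.60-fold, by 2.20 on the log2 scale (SE 0.30, edgeR, adjusted p = 5.44e-05).

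*TIMP2*, which both inhibits MMPs and takes part in the activation of MMP2, was at 27.2, 32 and 38.3 CPM in controls and at 78.1, 90.1 and 114 CPM in NASH. The groups did not overlap, with a coefficient of variation of 13.5% in controls and 14.3% in NASH, and the log2 fold change was 1.5 (SE 0.11, edgeR, adjusted p = 4.45e-07). *TIMP3*, the matrix-bound inhibitor that also blocks the TNF-releasing protease ADAM17, was at 25.8, 35.3 and 44.1 CPM in controls and at 19.6, 31.5 and 48.6 CPM in NASH. Its groups overlapped over nearly their whole range, and its log2 fold change was −0.19 (SE 0.20, edgeR, adjusted p = 0.441) with TMM and 0.29 (adjusted p = 0.244) with library size alone. The 95% interval of the fold change with TMM was 0.670 to 1.15.

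Ratios between inhibitors within an animal were computed after their values were seen, and are given as a description with no test. The log2 ratio of *TIMP1* to *TIMP3* averaged −0.64 ± 0.92 in controls and 1.93 ± 0.33 in NASH (SD, n = 6 each), higher by 2.56. That of *TIMP2* to *TIMP3* was higher by 1.73. In both, 6 of 6 animals with NASH were above all controls. The ratio of *TIMP1* to *TIMP2* was higher by 0.84 with overlapping groups.

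Ratios of a protease to an inhibitor known to bind it were then compared, as log2 of CPM + 0.1, in the 4 of 5 listed pairs with both genes in the table. Such a ratio does not depend on the scaling of libraries, apart from the added 0.1. *MMP14* to *TIMP2* averaged 1.45 ± 0.42 in controls and 0.27 ± 0.28 in NASH (SD, n = 6 each). All 6 animals with NASH were below all controls, a decrease of the ratio by 2.27-fold (difference −1.18 on the log2 scale, two-sided exact permutation test, adjusted p = 0.00433). Its unadjusted exact p of 0.00216 is the lowest that 6 animals against 6 can give. The numerator is the count row that *MMP14* shares with *MRPL52*. That row did not pass by itself (0.27 on the log2 scale) and *TIMP2* rose by 1.5, so the lower ratio mostly restates the rise of *TIMP2*.

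*ADAM17* to *TIMP3* went the other way, from −0.56 ± 0.23 to 0.18 ± 0.37 (SD, n = 6 each), 1.67-fold higher (exact permutation test, adjusted p = 0.00577), with every animal with NASH but animal 2 higher than all controls. By itself *ADAM17* rose by 0.51 and *TIMP3* did not pass (−0.19), so this ratio restates values of the single genes. *MMP2* to *TIMP2* was at −5.34 ± 0.57 in controls and −4.91 ± 0.27 in NASH (SD, n = 6 each), a difference of 0.43 that did not pass the exact permutation test (adjusted p = 0.126). It turned to −0.27 with 1 CPM added and rose to 0.62 without control animal 45 (exact permutation test, adjusted p = 0.0173), so no direction is given for this pair. *MMP12* to *TIMP1* was higher in all 6 animals with NASH than in any control. This is a description and no p-value is given, because *MMP12* is a row only through its counts in NASH. Adjusted p-values of the other pairs are over all 4 pairs. The size of the difference for *MMP12* to *TIMP1* has no meaning of its own. In 5 controls there was no count of *MMP12*, and their ratio is set by the 0.1 added.

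**Figure D3:**
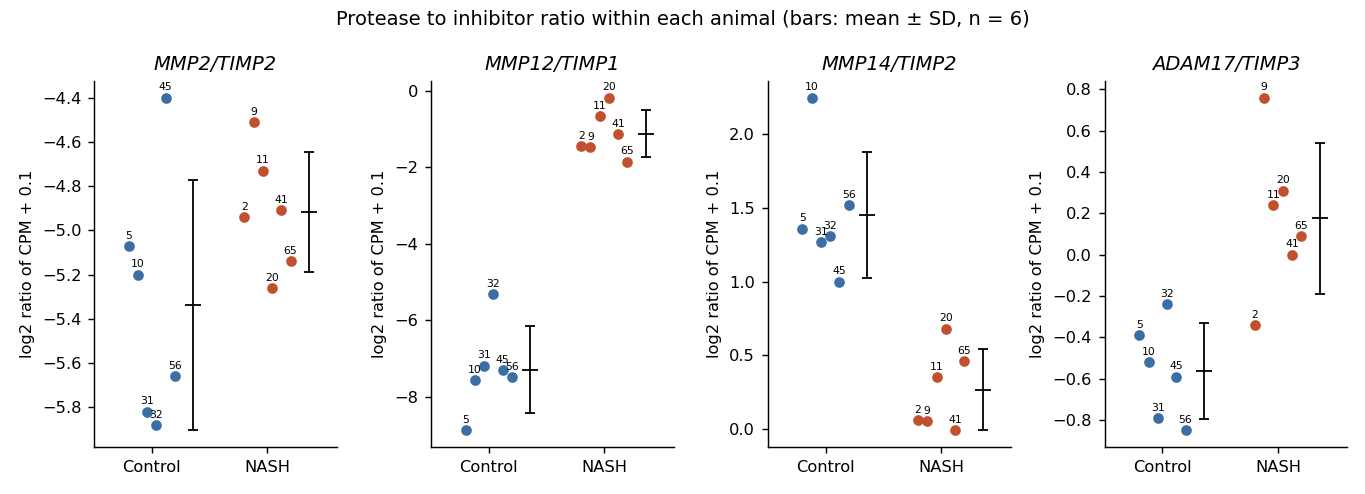
Log2 ratio of protease to inhibitor CPM, each with 0.1 added (y axes, log2 scale), within each of 6 controls and 6 animals with NASH, with mean ± SD. *MMP14* to *TIMP2* was lower in every animal with NASH than in any control, while *MMP2* to *TIMP2* overlapped.

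The genes most like the 4 with the largest change were sought by the root-mean-square difference between their regularised log (rlog) values, each centred on its mean over the 12 animals. For both *MMP12* and *ADAMDEC1* the nearest was *FABP5*, a fatty acid binding protein (differences 0.33 and 0.22 on the log2 scale), followed by *LGALS3*, the macrophage lectin galectin-3 (0.36 and 0.26). *FABP5* was at 3.91 CPM in controls and 123 CPM in NASH on average. *LGALS3* was at 6.11 and 186 CPM. For *TIMP1* the nearest were *CD200* (0.22) and *S100A4* (0.23), and for *MMP2* *RGL1* and *CHST3* (both 0.07). The rlog values of low counts are drawn towards their mean, which applies to *MMP2* and to *MMP12* and *ADAMDEC1*, each with at most 29 counts in every control. Their nearest genes therefore rest on shrunken values, and *FABP5* and *LGALS3* had smaller fitted changes than *MMP12* and *ADAMDEC1* (4.96 and 4.92 on the log2 scale). *RGL1* and *CHST3* had fitted changes of 0.77 and 1.72, against 2.02 for *MMP2*.

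Of 17 other MMP genes listed, 6 were in the table, 3 higher and 1 lower. *MMP11* (stromelysin-3, a protease of stromal cells) rose most, from 1.32 ± 0.453 to 12.6 ± 3.57 CPM (SD, n = 6 each) without overlap, a log2 fold change of 3.25 (SE 0.25, edgeR, adjusted p = 5.49e-07). *MMP15*, a membrane-type MMP related to *MMP14*, rose by 0.97 (SE 0.22, edgeR, adjusted p = 0.00214), and *MMP17* had the lowest value, −0.75 (edgeR, adjusted p = 0.00647), which did not pass with library size alone (−0.27, adjusted p = 0.246). Of the ADAM proteases, 6 of 12 were in the table and 5 were higher. *ADAM8*, a leukocyte protease, had no count in controls and was at least 5.13-fold higher, and *ADAM17* rose by 0.51 (SE 0.10, edgeR, adjusted p = 0.00116), the smallest value of that list. Among 13 of 19 ADAMTS proteases, 7 were higher and 2 lower, from 2.04 for *ADAMTS2*, which trims procollagen, to −1.62 for *ADAMTS17*. With library size alone 10 were higher and 2 lower, and *ADAMTS1* turned from −0.07 to 0.4 (edgeR, adjusted p = 0.00347).

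Other inhibitors and clearance receptors gave 4 higher and none lower of the 7 found of 10. *THBS1*, which binds MMPs and activates latent TGF-beta, rose by 4.06 (SE 0.21, edgeR, adjusted p = 6.86e-08). *SPOCK1*, a proteoglycan, had no count in controls and was at least 9.53-fold higher. The plasma inhibitor *A2M* had the lowest log2 fold change, −0.36 (edgeR, adjusted p = 0.0806), and 0.11 with library size alone. The median of these 7 was 2.15, and it was the same with *SPOCK1* at its bound. With library size alone 6 of the 7 were higher, and *LRP1*, a receptor that clears MMPs, turned from −0.04 to 0.43 (edgeR, adjusted p = 0.00599).

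Genes listed for the activation of pro-MMPs split, with 4 of 8 higher and 4 lower of 11 listed. Among the 4 higher were *PLAUR* (1.01, on a row shared by 2 symbols) and *BSG* (0.21), which are not proteases. *PLAU* (urokinase) had the highest log2 fold change, 1.59 (SE 0.26, edgeR, adjusted p = 0.000233). *PLG*, the plasminogen it cleaves, fell by 0.67 (SE 0.09, edgeR, adjusted p = 3.59e-05), and *FURIN*, which activates MMP14, fell by 0.69 (SE 0.15, edgeR, adjusted p = 0.00172). *KLKB1* had the lowest value, −1.48. With library size alone 4 of the 8 were higher and 2 lower, and *FURIN* was at −0.22 (edgeR, adjusted p = 0.169).

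The table held 14 of 17 listed matrix substrates. Of these 10 were higher and 3 lower, and their median was 1.13 on the log2 scale. They ranged from 4.21 for *COL1A1* to −0.99 for *FN1*, which encodes fibronectin in all its forms. *COL4A1*, a substrate of MMP2, rose from 35.8 ± 5.84 to 202 ± 58.4 CPM (SD, n = 6 each), by 2.49 on the log2 scale (SE 0.19, edgeR, adjusted p = 4.79e-07).

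Among cytokines that induce MMPs and TIMPs, 5 of 12 were in the table and 4 were higher. *PDGFB*, a growth factor for stellate cells, had the highest value, 2.39 (SE 0.24, edgeR, adjusted p = 4.97e-06), and *IL1B* the lowest, 0.41 (edgeR, adjusted p = 0.154). *TNF* rose by 1.58 (SE 0.27, edgeR, adjusted p = 0.000325) and *TGFB1*, an inducer of *TIMP1*, by 1.26 (SE 0.13, edgeR, adjusted p = 6.8e-06). Of 11 AP-1 and ETS transcription factors, which bind promoters of MMP genes, 6 were higher and none lower. *ETV4* had the highest log2 fold change, 2.76 (SE 0.45, edgeR, adjusted p = 0.000211), while *JUN* had the lowest, −0.33 (SE 1.01, edgeR, adjusted p = 0.802), and 0.17 with library size alone.

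Marker lists of cell types of the liver and blood were read beside the 8 genes. The summed level of 10 of 14 macrophage markers was 414 to 744 CPM in controls and 1080 to 1480 CPM in NASH, with 4 markers higher, 1 lower and 5 not called. *GPNMB*, a glycoprotein of lipid-laden macrophages, made up most of this gap, at 54.0 CPM in controls and 498 CPM in NASH on average. Without it the sums were 400 to 686 CPM and 650 to 916 CPM and overlapped. *TREM2*, a receptor of lipid-associated and scar-associated macrophages, rose most, by 7.22 (SE 0.59, edgeR, adjusted p = 8.89e-07), and *MARCO*, a receptor of resident Kupffer cells, fell by 1.27 (SE 0.31, edgeR, adjusted p = 0.00364). *CD68* rose by 0.69 (edgeR, adjusted p = 9.33e-06), whereas *CSF1R*, *CD14*, *C1QA*, *C1QB* and *C1QC* had log2 fold changes between 0.06 and 0.41 that did not pass. With library size alone 8 of the 10 were higher and 1 lower. Control animal 32, the only control with counts of *MMP12*, was also the only control with counts of *TREM2* (9 counts). Over all genes, 27 had a count in exactly 1 control, and for 7 of these it was animal 32.

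The sum of all 10 stellate cell and fibroblast markers was 401 to 518 CPM in controls and 850 to 1490 CPM in NASH, with 5 markers higher, 2 lower and 3 not called. *RGS5*, a pericyte gene (85.8 to 527 CPM on average), and *LUM*, which encodes the matrix proteoglycan lumican (134 to 307 CPM), made up most of this gap. Without both the sums were 187 to 271 CPM and 257 to 354 CPM and overlapped. *RGS5* rose most, by 2.62, and *POSTN* was lowest, at −0.80. With library size alone 5 were higher and none lower, with *POSTN* at −0.33 (edgeR, adjusted p = 0.162) and *LRAT* at −0.10 (adjusted p = 0.484). Cholangiocyte markers (6 of 8 found) summed to 90.9 to 121 CPM and 312 to 547 CPM, with 5 higher, and did not overlap without *KRT19* and *EPCAM*, the pair with the largest change in CPM, either. Neutrophil markers (4 of 8 found) summed to 15.6 to 39.7 CPM and 34.9 to 69.3 CPM, overlapping between groups, with 3 higher, and *LTF* gave most of the sum. Endothelial sums were 503 to 690 CPM and 570 to 829 CPM, with 3 of 7 markers higher and 1 lower, and erythroid sums 58.3 to 173 CPM and 431 to 4560 CPM, with all 5 higher by edgeR and 3 by limma-voom. Animals 41 and 65 with NASH had erythroid sums of 4560 and 3300 CPM, and the other 4 had 431 to 729 CPM. Of 7 T cell markers 1 was higher (*CD8A*), 1 lower (*CD3E*) and 5 were not called, and with library size alone 3 were higher and 1 lower. Their sums of 60.8 to 116 CPM and 37.1 to 65.4 CPM followed *CD3E*, and without it were 9.65 to 16.4 CPM and 12.9 to 19.2 CPM. Of 8 hepatocyte markers found, 6 were lower and none higher, with sums of 107000 to 135000 CPM in controls and 41100 to 71200 CPM in NASH. With library size alone 3 were lower and 1 higher. *SERPINA1* (−0.17, adjusted p = 0.127) and *FGB* (−0.06, adjusted p = 0.759) then lost edgeR's call, and *ASGR1*, lower at −0.18 with TMM, passed as higher at 0.29 (adjusted p = 0.00266). No listed marker in the table was at 0 in all animals of a group. The part of these cell types in the changes of the 8 genes was not tested.

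**Figure D4:**
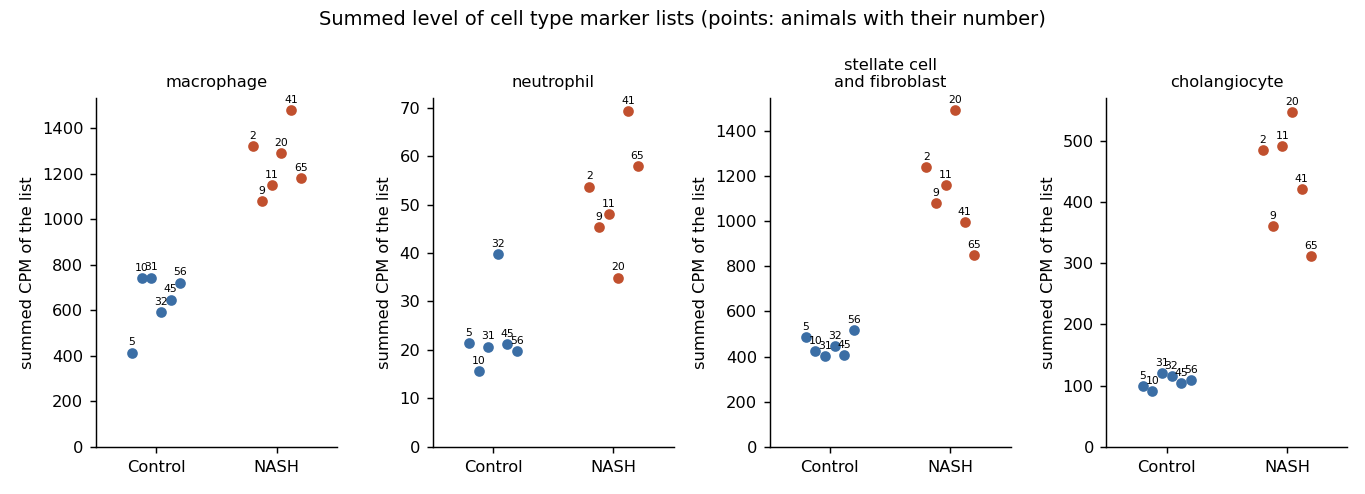
Summed CPM of 4 marker lists (y axes, linear, from 0) in 6 controls and 6 animals with NASH, with animal numbers. The macrophage, stellate cell and cholangiocyte sums did not overlap between groups and the neutrophil sums did, but the macrophage sums overlapped without *GPNMB* and the stellate cell sums without *RGS5* and *LUM*.

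Within the 6 animals with NASH, the 8 genes did not share 1 order. Animal 2 was highest for *TIMP1*, *TIMP2* and *TIMP3* and lowest for *MMP19*. Animal 65 was lowest for *MMP2*, *MMP12* and *ADAMDEC1*. All 28 pairs were compared by correlation of log2 CPM over these 6 animals, and 17 were positive. The lowest p-value was that of *TIMP1* and *TIMP2* (Pearson's r = 0.88, exact permutation p = 0.0236, adjusted p = 0.661, Spearman's rho = 0.89, exact permutation p = 0.0333, adjusted p = 0.756). Without the 2 animals farthest from the median of *TIMP1*, r was 0.33 over the remaining 4. For *MMP12* and *ADAMDEC1*, r was 0.76 (exact permutation p = 0.0708, adjusted p = 0.678), rho was 0.71 (exact permutation p = 0.136, adjusted p = 0.756), and r without 2 animals was −0.15.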

How the data were processed

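Strand-specific mRNA libraries of 12 livers were read from a single end. Per the labels and the study's methods, the authors trimmed reads with Trimmomatic 0.38.0, mapped them to Cavpor3.0 with HISAT2 2.1.0, ignored multimapped reads, assembled loci with StringTie 1.3.6 and deposited raw counts per locus. They also deposited rlog values on the log2 scale, made with DESeq2, for human orthologue symbols with at least 200 counts. Whether counting used strand is not given in the sources used here.

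The count table holds no symbols. Symbols were joined to count rows by computing rlog values anew from the counts, which came within 8.4e-07 of the deposited ones for all 11896 symbols on 11031 rows. Counts were tested in R 4.3.3 with edgeR 4.0.16 (TMM, robust quasi-likelihood fit). Standard errors are the absolute log2 fold change over the square root of F, and 95% intervals of a fold change use 1.96 of them. Scripts were tested on simulated data. Between 2 animals of a group, the variance of counts was at least 44.5 times that of counting error (chi-square per gene), so each animal is 1 sample. Alternatives were RLE factors, library size alone, DESeq2 1.42.0, limma-voom 3.58.1, 2 other filters, 4 other scales of the ratios and each animal left out. Marker sums without their leading genes were added after seeing the data.

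The genes, lists and tests were chosen with earlier results of these data known. Named genes are the members, the highest and lowest of each list, listed genes a member acts with, and the 2 nearest to each of 4 members. *MMP20*, *CD68* and the marker genes other than the highest and lowest of a list were named after their values were seen. The RefSeq annotation at hand is of another assembly (mCavPor4.1), so no coordinates are given. Sequences were not analysed here. Figures were drawn with matplotlib 3.10.9.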

Additional observations from a re-analysis of the deposited data

Results flagged for a closer look

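Control animal 32 had 0.872 CPM of *MMP12* and 0.413 CPM of *TREM2*, and the other 5 controls were at 0 for both genes. Control animal 45 had 93.5 CPM of *MMP20*, and the next control had 21.5 CPM. These were the values far from the rest of their group among 38 groups of 6 values checked, where chance flags about 1 in 20. With 5 of 6 values at 0, any count in the remaining animal is flagged. That chance rate therefore does not hold for *MMP12* and *TREM2*.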

How the results depend on the processing

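*MMP2*, *MMP12*, *TIMP1*, *TIMP2* and *ADAMDEC1* stayed higher and past the threshold under all 6 other settings and with each animal left out. The number of genes called was 10813 with every row that had a count and 9823 with filterByExpr, against 6411, because more rows were tested. With library size alone, *MMP14* passed at 0.75, *TIMP3* turned to 0.29 without passing, and the median of the pro-MMP activators turned from −0.23 to 0.24. With an animal left out, the log2 fold change was 0.16 to 0.47 for *MMP14* (called without control 10) and 0.24 to 0.34 for *MMP19* (lost in 7 of 12), and the difference of *MMP2* to *TIMP2* was 0.32 to 0.62. That difference was −0.27 with 1 CPM added and −0.46 in rlog values (exact permutation test, adjusted p = 0.00289), in which *MMP2*, at few counts, is shrunk. The fitted change of *MMP12* was 13.54 without control 32, a value set by the prior count. The 3 ratios between TIMPs kept their direction under the 4 other scales and with each animal left out. No paired analysis was possible because the groups share no animal number. Depth limits *MMP2* in controls and any value under 3 counts, up to 0.214 CPM.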

Other observations

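The row with the symbol *MMP20*, the tooth enamel protease enamelysin, had a median of 19.9 CPM in controls and 23.5 CPM in NASH and varied more within a group than any of the 8 genes with counts in every animal. It reached 93.5 CPM in control animal 45, against 13.9 to 21.5 CPM in the other controls, and 3.62 to 64.0 CPM in NASH. The groups overlapped, with a log2 fold change of −0.20 (SE 0.70, edgeR, adjusted p = 0.828) with TMM and 0.26 with library size alone. Whether this row also holds reads of other MMP genes, such as *MMP7*, was not tested.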
